A study of Mus musculus with 6 samples.

Results

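Laminin and integrin genes were followed in hearts of mouse embryos in which the RNA-binding protein genes Rbpms and Rbpms2 were targeted; the series' design text calls the knockout specific to cardiomyocytes, the heart's contractile cells. Members were the protein-coding rows of the deposited table whose symbol is that of a laminin alpha, beta or gamma chain or begins with the integrin alpha or beta stem, leaving out the binding proteins named Itgb1bp. This gave 41 rows of 48709, namely 11 laminin rows and 30 rows with an integrin symbol, and 40 different symbols because Itgam is listed under 2 identifiers. The symbols also take in Itgb3bp, which encodes the kinetochore protein CENP-R, and Itgbl1, a secreted protein with integrin-like repeats, neither of which is an integrin subunit. Double knockout embryos (3 libraries) carried flox/flox alleles of both RBPMS and RBPMS2 and were positive for the Cre transgene that the labels call XML Cre. Control embryos (3 libraries) were littermates with the same flox/flox alleles, and none is labelled as carrying Cre. All were of the C57BL6/J strain and untreated as far as the labels say, and the tissue was heart at an embryonic stage that is not given more closely. The sources used here give neither the promoter of the Cre transgene nor whether each library came from its own embryo. The p-values therefore reflect only how much these libraries scatter, which may be technical in part, and Cre itself and the lost genes cannot be told apart.

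Laminins are trimers of an alpha, a beta and a gamma chain and form the polymer sheet of the basement membrane around cardiomyocytes, endothelium and epicardium. Integrins are pairs of an alpha and a beta subunit that span the plasma membrane and tie this sheet, fibronectin or collagen to the actin cytoskeleton. In the developing heart the beta1 subunit is the common partner of most alpha subunits, and in cardiomyocytes integrin complexes sit at costameres, where Z-discs meet the membrane.

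Reads were single-end and came from polyA RNA. The deposited values are whole numbers that look like read counts scaled per library and rounded; they are called normalised read counts here and summed to between 19770390 and 20215282 per library. Rbpms was at 721, 699 and 670 in double knockouts 1 to 3 and at 3551, 3853 and 3956 in controls 1 to 3, and Rbpms2 was at 1676, 1257 and 1429 in the double knockouts and 2444, 2571 and 2716 in the controls, so both targeted genes were lower in every double knockout library. Double knockout 3 and control 3 had almost no Xist (20 and 6, against 19501 to 25229 elsewhere) and high Eif2s3y (1569 and 1207, against 0 to 4 elsewhere), a male pattern that no other library showed. Without both libraries numbered 3, only 14 genes of the table were called higher and 24 lower, against 618 and 681 with all libraries. Libraries also differed in how a gene's deviation followed its GC content (Spearman's rho across genes from -0.58 to 0.10 in double knockouts and from 0.20 to 0.39 in controls), so that trend and genotype cannot be told apart. All 12 cardiomyocyte markers were detected in every library, and their summed value was 544330 to 643819 in double knockouts and 649729 to 705662 in controls. In whole hearts, fewer cells of a type and less RNA per cell cannot be told apart.

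Most laminin and integrin genes showed no called difference between genotypes. Differences were tested across all 26747 genes with a mean of at least 1 in a genotype, by limma on log2(value + 1), two-sided. The threshold was a p below 0.05 after Benjamini-Hochberg adjustment, and log2 fold changes are double knockout minus control. Only Itgav, the alphaV subunit, passed: it was higher in the double knockouts. Of the 40 members tested 1 (2.5%) was called, where 4.86% of all tested genes were called (2.31% higher and 2.55% lower). None of the 11 laminin genes passed with limma, also with voom weights, although 2 of them were higher and 4 lower at an unadjusted p under 0.05 (54.5%, where 18.7% of all tested genes had such a p). In 8 of the 40 members (20.0%) the genotypes had no overlapping values, against 21.7% of all tested genes. Among the 25 members with a mean of at least 100, 19 had fitted differences above 0 and 6 below, with a median of 0.17. The median over the 40 members was 0.19, beside 0.02 over all genes tested. Of the 40, 31 lay above 0, as did 13875 of the 26747 genes tested. The highest of the 40, at 0.88, was that of Itgb6, a gene at 0 to 13 across the libraries. The row left untested was the second Itgam identifier (0 in every double knockout, and 0, 1 and 0 in the controls), and Itgb2l, at 0 to 2 in every library, was tested only because its double knockout mean reached 1. The plot of values by library spans these levels, from single reads for some leukocyte integrins to means of 16897 in double knockouts and 16808 in controls for Itgb1.

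**Figure D1:**
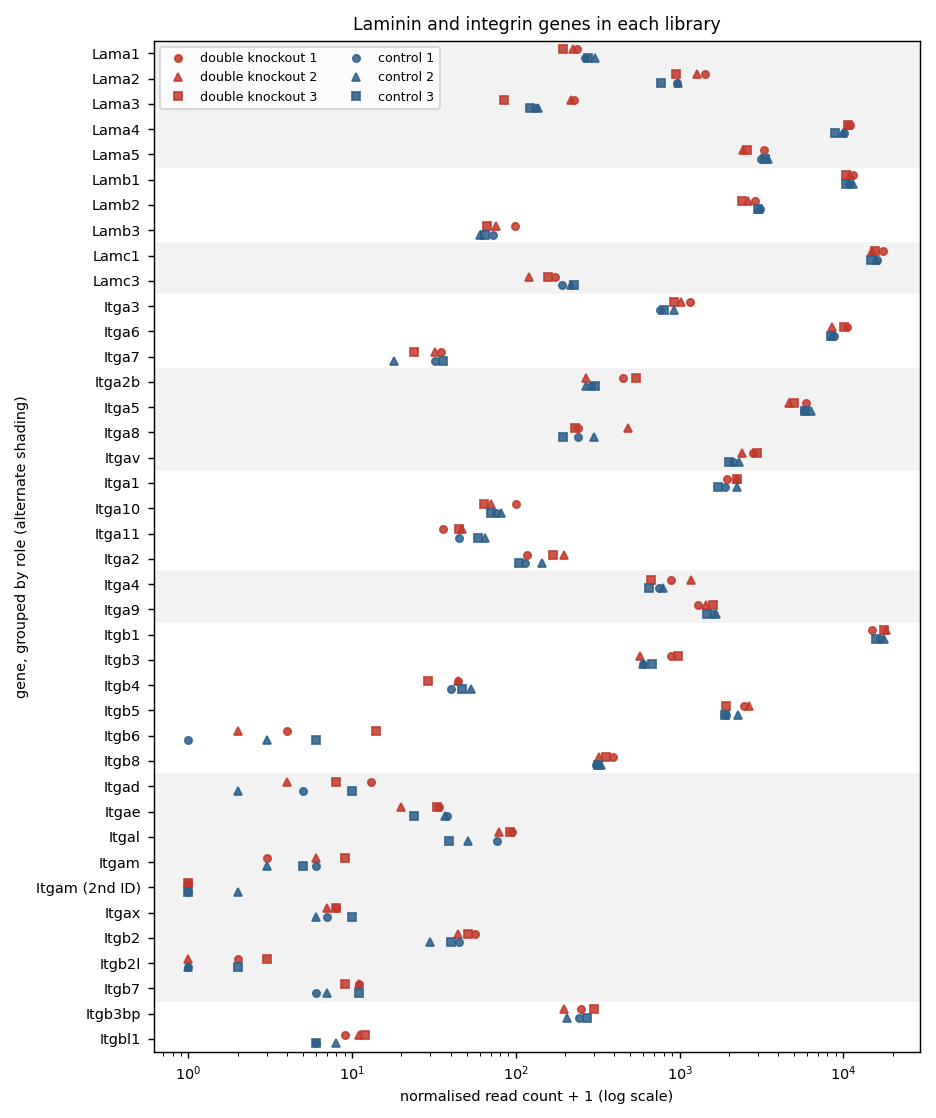
Normalised read count plus 1 (log axis) of the laminin and integrin rows described in the text in each of the 3 double knockout and 3 control libraries, with 1 symbol per library and genes grouped by role. Itgb1, Lamc1, Lamb1, Lama4 and Itga6 are the most abundant, and for most genes the 2 genotypes overlap.

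**Figure D2:**
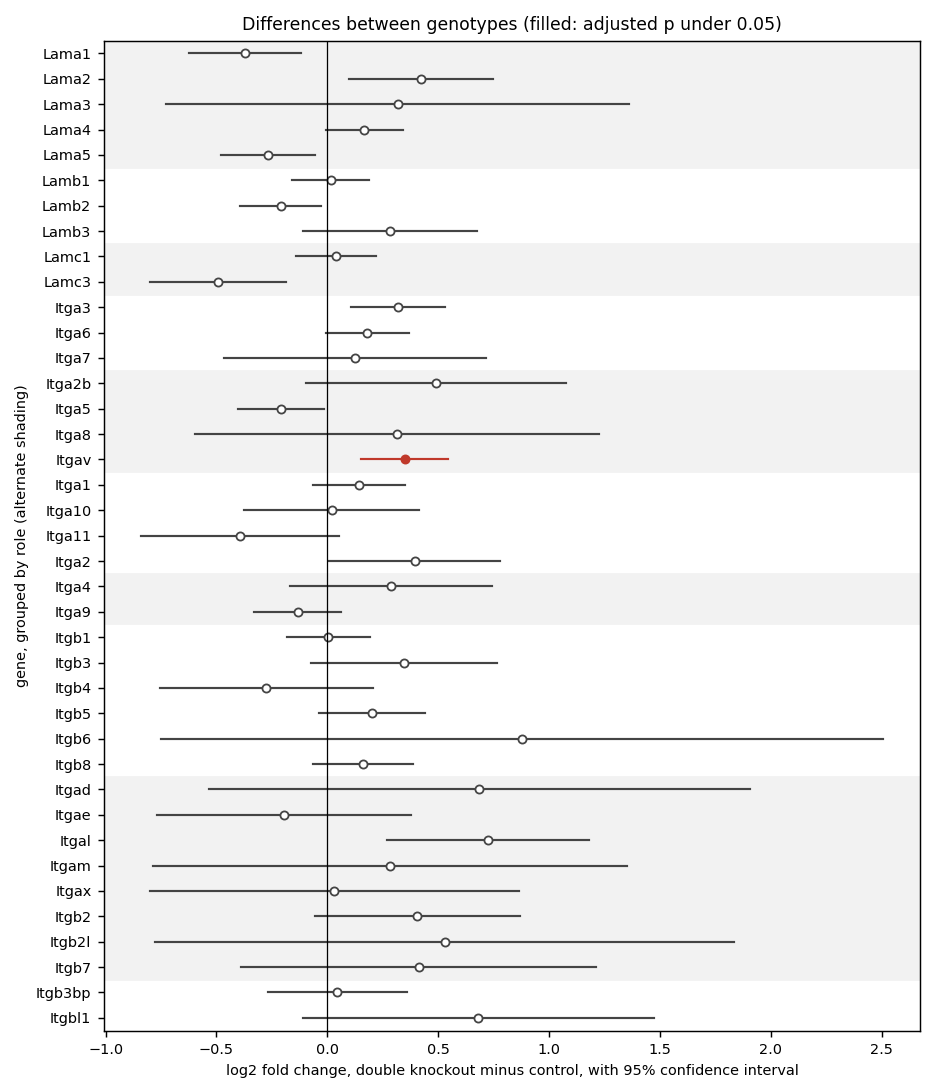
Fitted log2 fold change (double knockout minus control, x axis) with its 95% confidence interval for the tested laminin and integrin genes described in the text, grouped by role. Itgav (0.35) is the filled point, and the intervals of the abundant chains Itgb1, Lamb1 and Lamc1 lie within 0.23 of 0.

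The beta1 and gamma1 chains of the common basement membrane laminins overlapped between genotypes and had narrow intervals around 0. Lamc1, the gamma1 chain shared by most laminins (chromosome 1), was at 17553, 14973 and 15519 in double knockouts 1 to 3 and at 16104, 15780 and 14760 in controls 1 to 3. Lamb1, the beta1 chain (chromosome 12), was at 11522, 11052 and 10392 in the double knockouts and 10781, 11445 and 10401 in the controls. For both chains each genotype had libraries above and below those of the other. Their log2 fold changes were 0.04 (95% interval -0.14 to 0.22) and 0.01 (-0.16 to 0.19), and both intervals lie within 0.23 of 0. Lamb2, the beta2 chain of the neuromuscular and vascular basement membrane (chromosome 9), was at 2902, 2632 and 2398 in double knockouts, all below the controls at 3078, 3072 and 3004, but it did not pass (-0.21 ± 0.09 SE, limma adjusted p = 0.192). Lamb3, the beta3 chain of epithelial laminin, was low, with 66 to 98 in double knockouts and 59 to 71 in controls.

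Alpha chains, which carry the integrin-binding end of the trimer, had fitted differences on both sides of 0, and none passed. Lama4, the alpha4 chain of vascular basement membrane (chromosome 10), was the most abundant, at 10960, 10747 and 10667 in double knockouts and 10081, 9909 and 8903 in controls. Every double knockout library thus lay above every control library, by little (0.17 ± 0.08 SE, limma adjusted p = 0.283). Lama2, the alpha2 chain of the muscle basement membrane (chromosome 10), was at 1429, 1278 and 943 in double knockouts and 960, 972 and 767 in controls. Within each genotype the library numbered 3 was the lowest, and the groups overlapped (0.42 ± 0.15 SE, limma adjusted p = 0.147). Of the 6 fits that left out a library, Lama2 passed only without double knockout 3 (0.59, limma adjusted p = 0.0206). Lama5, the alpha5 chain of vascular and epithelial basement membranes (chromosome 2), was at 3288, 2447 and 2576 in double knockouts and 3154, 3476 and 3302 in controls. Double knockout 1 lay among the controls and the other double knockouts below them (-0.27 ± 0.10 SE, limma adjusted p = 0.146). In those 6 fits Lama5 passed only without double knockout 1 (-0.40, limma adjusted p = 0.0209).

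The remaining laminin chains were less abundant. Lama1, the alpha1 chain of the earliest embryonic basement membranes (chromosome 17), was at 236, 222 and 194 in double knockouts, below the controls at 264, 305 and 274 in every library (-0.37 ± 0.12 SE, limma adjusted p = 0.0866). Lamc3, the gamma3 chain (chromosome 2), was at 173, 120 and 156 in double knockouts and 189, 215 and 224 in controls, again without overlap, and missed the threshold (-0.49 ± 0.15 SE, limma adjusted p = 0.0581). With 1 library left out at a time, Lamc3 passed only without double knockout 1 (-0.61, limma adjusted p = 0.0473). Lama3, the alpha3 chain of epithelial laminin (chromosome 18), was at 226, 215 and 84 in double knockouts and 129, 135 and 121 in controls. Double knockout 3 was the lowest of the 6 libraries while the other double knockouts were the highest (0.32 ± 0.41 SE, limma adjusted p = 0.733). Of the 6 fits that left out a library, Lama3 passed only without double knockout 3 (0.78, limma adjusted p = 0.0114). In those fits its difference ran down to 0.07 and its limma adjusted p up to 0.934. Markers of the epicardium, an epithelium, did not move together: of 8 genes, 4 had fitted differences above 0 and 4 below. Krt19 and Krt8 rose (25% called, beside 4.86% of all tested genes), and Krt8 passed in only 1 of the 6 fits that left out a library. At an unadjusted p under 0.05 with limma 3 were higher and 2 lower (62.5%, beside 18.7% of all tested genes). The summed value was 6934 to 8289 in double knockouts and 6429 to 7860 in controls. The part of these markers in the values of the epithelial chains was not tested.

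Among the alpha subunits that bind laminin, Itga6 was far the most abundant. Itga6, the alpha6 subunit (chromosome 2), was at 10519, 8569 and 10121 in double knockouts and 8820, 8521 and 8361 in controls, and double knockout 2 lay among the controls (0.18 ± 0.09 SE, limma adjusted p = 0.284). Itga3, the alpha3 subunit of epithelial and vascular cells (chromosome 11), was at 1155, 1012 and 929 in double knockouts, all above the controls at 758, 924 and 800, with double knockout 3 only just above control 2. It did not pass (0.32 ± 0.10 SE, limma adjusted p = 0.0797), but it was called after removal of each library's trend with GC content and length (0.41, limma adjusted p = 0.00247). Itga7, the laminin receptor subunit known best from mature skeletal and heart muscle, was at 34, 31 and 23 in double knockouts and 31, 17 and 35 in controls. Itgb4, the beta subunit that pairs with alpha6 in hemidesmosomes, was at 28 to 43 in double knockouts and 39 to 52 in controls.

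Itgav rose in the double knockouts, and Itga5 had a fitted difference below 0 that did not pass. These alpha subunits bind fibronectin, vitronectin and other ligands with an arginine-glycine-aspartate motif. Itgav (chromosome 2, 83724397 to 83806916, plus strand, mm10) was at 2821, 2399 and 2972 in double knockouts 1 to 3, against 2120, 2290 and 2005 in controls 1 to 3. Every double knockout library was above every control library, although double knockout 2 exceeded control 2 by little. The means were 2731 ± 297 in double knockouts and 2138 ± 143 in controls (SD, n = 3 each), a ratio of 1.28 and a log2 fold change of 0.35 ± 0.09 (SE, 95% interval 0.15 to 0.55, limma adjusted p = 0.0371). Itgav no longer passed when control 1 (limma adjusted p = 0.177), control 3 (0.229), double knockout 1 (0.110) or double knockout 3 (0.196) was left out, nor without robust moderation of the variances (0.130). With the GC and length trend removed the difference was 0.23 (limma adjusted p = 0.0492), and without both libraries numbered 3 it was 0.24 (limma adjusted p = 0.542). Exons of a transcript on the other strand overlap those of Itgav (Gm13684), Lama2 (Gm48084), Lama3 (Gm29200) and Lamc3 (Gm13441). The same holds for Itga7 (Mettl7b), Itga8 (E030013I19Rik), Itgad (Cox6a2 among others), Itgb3bp (Pgm1) and Itgb4 (B230344G16Rik). The sources used here do not say whether reads were counted by strand, so these values could include reads of the partner.

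Itga5, the alpha5 subunit of the fibronectin receptor (chromosome 15), was at 5902, 4674 and 5019 in double knockouts and 5779, 6355 and 5832 in controls. Double knockout 1 lay among the controls and the other double knockouts below them (-0.21 ± 0.09 SE, limma adjusted p = 0.226). Itga8, the alpha8 subunit that binds nephronectin, was at 240, 482 and 229 in double knockouts and 238, 300 and 193 in controls, and only double knockout 2 stood apart. Double knockout 2 also had the highest summed value of 10 fibroblast and cushion markers, at 40280, against 26397 and 20143 in double knockouts 1 and 3 and 22232 to 30849 in controls. The part of those cells in the Itga8 value was not tested.

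Itga2b and Itgb3, the pair that forms the platelet fibrinogen receptor, were high in the same libraries as platelet markers. Itga2b, the alphaIIb subunit (chromosome 11), was at 451, 267 and 541 in double knockouts and 287, 268 and 305 in controls. Itgb3, the beta3 subunit that also pairs with alphaV (chromosome 11), was at 879, 570 and 973 in double knockouts and 595, 593 and 674 in controls. For both genes double knockouts 1 and 3 were above every control, and double knockout 2 was the lowest of the 6 libraries. Neither passed (0.49 ± 0.25 SE, limma adjusted p = 0.352, for Itga2b and 0.34 ± 0.18 SE, limma adjusted p = 0.366, for Itgb3). With 1 library left out at a time, both passed only without double knockout 2 (0.78, limma adjusted p = 0.00113, and 0.58, limma adjusted p = 0.00327). The summed value of 8 platelet and megakaryocyte markers, all above 0 in every library, was 765, 420 and 1045 in double knockouts 1 to 3 and 430, 414 and 572 in controls 1 to 3. With limma 0 of the 8 were called (2 at an unadjusted p under 0.05, which is 25% beside 18.7% of all tested genes). All 8 had fitted differences above 0, with a median of 0.52. Itgav was also lowest in double knockout 2 among the double knockouts, but there it was still above every control. The part of platelet and megakaryocyte RNA in these values was not tested.

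**Figure D3:**
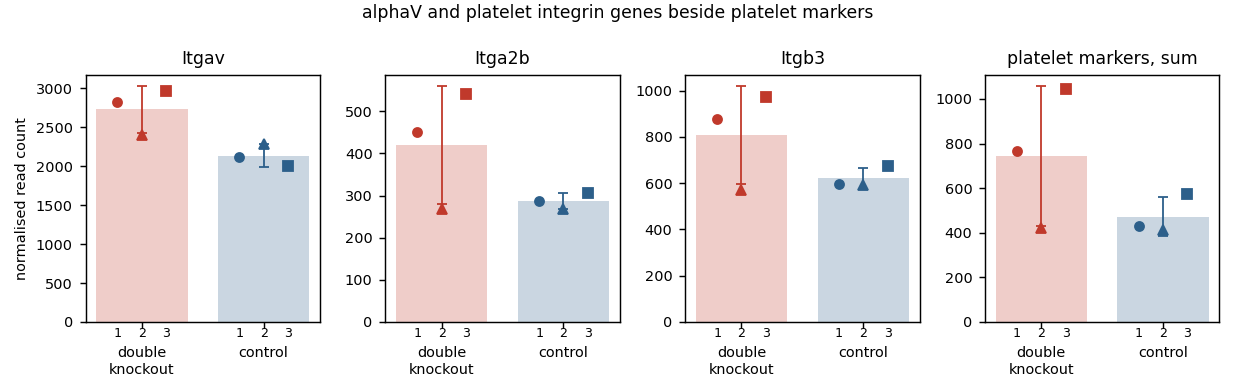
Normalised read counts of Itgav, Itga2b and Itgb3 and the summed value of 8 platelet and megakaryocyte markers in double knockout (left) and control (right) libraries 1 to 3, with bars at the mean and error bars of 1 SD (n = 3). Itga2b, Itgb3 and the marker sum (765, 420 and 1045 in the double knockouts) are high in double knockouts 1 and 3 and not in 2.

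Of the 4 collagen-binding alpha subunits 0 passed with limma (1 at an unadjusted p under 0.05, which is 25% beside 18.7% of all tested genes). Itga1, the alpha1 subunit (chromosome 13), was at 1940, 2247 and 2244 in double knockouts and 1894, 2231 and 1718 in controls (0.14, 95% interval -0.07 to 0.35, limma adjusted p = 0.470), and its exons share 685 bases on the same strand with Gm49395, so its value is uncertain. Itga2, the alpha2 subunit, was at 116, 196 and 167 in double knockouts and 113, 143 and 103 in controls (0.39 ± 0.18 SE, limma adjusted p = 0.255). Itga10 and Itga11, subunits of cartilage and fibroblasts, stayed between 35 and 99 in all libraries, with overlapping groups, and Itga10 shares exon sequence on the same strand with Gm42957. Itga9, the alpha9 subunit that binds tenascin and VCAM1 (chromosome 9), was at 1288, 1447 and 1595 in double knockouts and 1594, 1673 and 1474 in controls (-0.13 ± 0.09 SE, limma adjusted p = 0.470). Itga4, the alpha4 subunit that binds VCAM1 and fibronectin, was at 890, 1179 and 669 in double knockouts and 751, 789 and 652 in controls, with double knockout 2 again the highest (0.29 ± 0.19 SE, limma adjusted p = 0.478). Exons of Itga4 overlap those of Cerkl on the other strand.

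None of the beta subunits passed, and the interval of beta1 was narrow. Itgb1, the beta1 subunit (chromosome 8), was at 14960, 18097 and 17633 in double knockouts and 16757, 17749 and 15918 in controls. Double knockouts held both the lowest and the highest library, and the log2 fold change was 0.00 with a 95% interval of -0.18 to 0.19. Itgb5, the beta5 partner of alphaV (chromosome 16), was at 2472, 2662 and 1924 in double knockouts and 1923, 2277 and 1896 in controls, with double knockout 3 among the controls (0.20 ± 0.11 SE, limma adjusted p = 0.355). Itgb8, the beta8 partner of alphaV that activates latent TGF-beta, was at 391, 323 and 355 in double knockouts and 308, 328 and 318 in controls (0.16 ± 0.11 SE, limma adjusted p = 0.453). Itgb6, another partner of alphaV, was near background, with 1 to 13 in double knockouts and 0 to 5 in controls.

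Leukocyte integrins were low, and most had fitted differences above 0 without passing. Of 8 tested, 7 lay above 0 and the median was 0.41. With limma 0 passed (1 at an unadjusted p under 0.05, which is 12.5% beside 18.7% of all tested genes). The 7 include Itgb2l, which was tested only because its double knockout mean reached 1. They also include Itgax, which had a mean of 6.67 in both genotypes. Itgal, the alphaL subunit of LFA-1 (chromosome 7), was at 94, 78 and 91 in double knockouts, all above the controls at 76, 50 and 38 (0.72 ± 0.22 SE, limma adjusted p = 0.0628). Of the 6 fits that left out a library, Itgal passed only without control 1 (0.99, limma adjusted p = 0.0254). It also passed with the GC and length trend removed (0.78, limma adjusted p = 0.0483). Itgb2, its beta2 partner, was at 55, 43 and 50 in double knockouts and 44, 29 and 39 in controls (0.41 ± 0.22 SE, limma adjusted p = 0.338). Itgae, the alphaE subunit, was at 19 to 33 in double knockouts and 23 to 37 in controls, and Itgam, Itgax, Itgad, Itgb7 and Itgb2l were at 12 or below in every library. Exons of Itgam overlap those of its second identifier and of Gm49368 on the same strand, so its value is uncertain. Of 11 leukocyte markers, all above 0 in every library, 1 rose: Ptprc, the pan-leukocyte phosphatase CD45, at 30, 31 and 35 in double knockouts and 15, 12 and 12 in controls (1.24 ± 0.27 SE, limma adjusted p = 0.00910). Ptprc no longer passed without control 3 or without double knockout 3 (limma adjusted p up to 0.0655). With limma 9.09% of the 11 markers were called, beside 4.86% of all tested genes. Their fitted differences lay above 0 in 10 and below 0 in 1, with a median of 0.47. In 4 of the 11 (36.4%) the genotypes had no overlapping values, against 21.7% of all tested genes. The markers summed to 1470 to 1744 in double knockouts and 1382 to 1487 in controls, and their part in the integrin values was not tested.

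Of the rows that are not integrin subunits, Itgb3bp was at 197 to 301 in double knockouts and 204 to 272 in controls (0.05 ± 0.15 SE). Itgbl1 was at 8, 10 and 11 in double knockouts, just above the controls at 5, 7 and 5 (0.68 ± 0.38 SE, limma adjusted p = 0.349).

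Levels of different chains can be set side by side once values are divided by the length of the gene's merged exons. On that scale Lama4, Lamb1 and Lamc1 were the leading laminin chains in both genotypes: the alpha4 chain made up 71.6 ± 2.94% of the summed alpha-chain level in double knockouts and 67.3 ± 1.49% in controls (SD, n = 3 each). Lama5 was the next, with 21.7, 17.5 and 18.9% in double knockouts 1 to 3, below each control at 22.9, 24.8 and 26.0%. Lama2 came to 5.93 ± 0.96% in double knockouts and 4.64 ± 0.37% in controls. Lamb2 made up 27.9 ± 0.86% of the beta-chain level in double knockouts and 31.2 ± 0.82% in controls, and Lamc1 over 95% of the gamma-chain level in each library. Among the integrin alpha subunits, Itga5 held 35.7, 32.9 and 32.2% in double knockouts and 39.2, 40.8 and 40.7% in controls. Itga6 held 34.8, 33.0 and 35.5% in double knockouts and 32.7, 29.9 and 31.9% in controls. The share of alpha5 was therefore lower, and that of alpha6 higher, in every double knockout library than in every control library on this scale. Itgav held 7.84, 7.76 and 8.76% in double knockouts and 6.59, 6.75 and 6.42% in controls. Itga9, with 4.999, 6.54 and 6.57% in double knockouts and 6.93, 6.89 and 6.59% in controls, lay below Itgav in every double knockout library and just above it in every control library. Itgb1 made up 80.1, 83.1 and 84.97% of the beta-subunit level in double knockouts and 85.6, 84.6 and 84.8% in controls, with overlapping groups. These shares are descriptions: no test was run on them, and a share can move through another chain of the same sum. With the length of the longest transcript in place of merged exons, Itga6 led Itga5 in both genotypes, at 47.1 and 24.5% in double knockouts and 44.3 and 30.2% in controls, so the order of these subunits in controls depends on the length used. With that length the Itga6 shares overlapped, at 47.6, 45.5 and 48.2% in double knockouts and 45.6, 42.4 and 44.8% in controls, and Itgav was above Itga9 in both genotypes. The laminin shares also depended on the length used. With the longest transcript, Lama4 came to 81.4% in double knockouts and 78.9% in controls. Lama5 then came to 11.1 and 14.4%, and Lamb2 to 19.7 and 22.3%, in the same order.

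**Figure D4:**
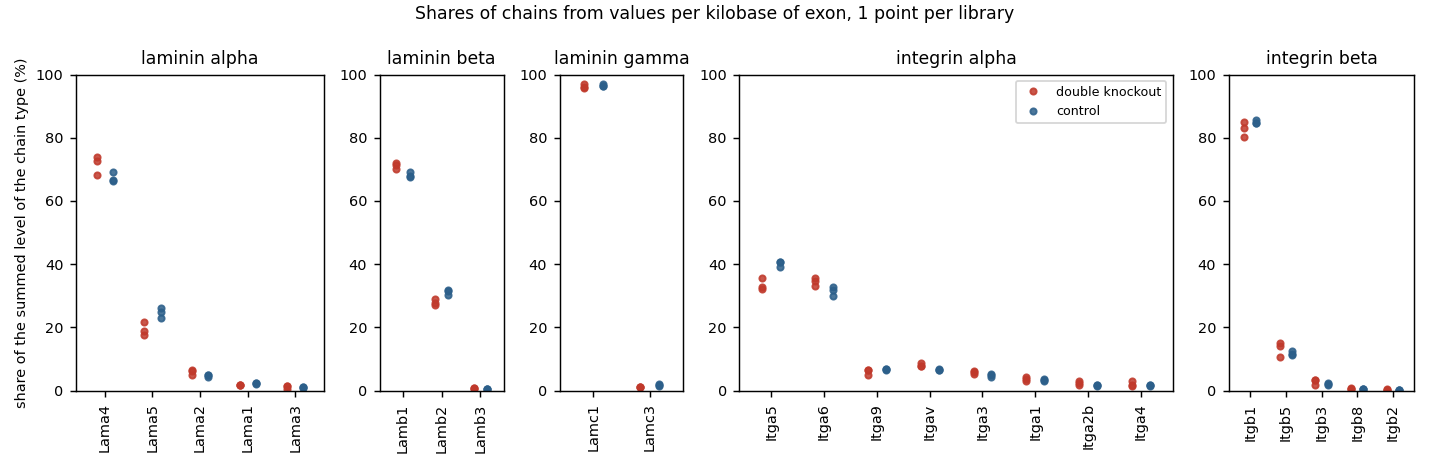
Share (%) of laminin chains and of the more abundant integrin subunits in the summed level of its chain type, from values per kilobase of merged exons, with 1 point per library and double knockouts left of controls. Lama4, Lamb1, Lamc1 and Itgb1 lead their panels, and the Itga5 points of the double knockouts (32.2 to 35.7%) lie below those of the controls (39.2 to 40.8%).

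Several genes that work with laminins and integrins changed. In 5 lists of such genes 7 rose and 6 fell. From 0 to 18.2% of a list was called, beside 4.86% of all tested genes. Without both libraries numbered 3 only Nrap was called. Of the 22 basement membrane partners, such as type IV collagens, nidogens and perlecan, 1 rose and 0 fell with limma (3 higher and 1 lower at an unadjusted p under 0.05, which is 18.2% beside 18.7% of all tested genes), with a median of 0.12. The riser was Npnt, nephronectin, a ligand of alpha8 integrin, at 1593, 1481 and 1711 in double knockouts and 1212, 1316 and 1187 in controls (0.36 ± 0.09 SE, limma adjusted p = 0.0205). Npnt passed only when the library left out was control 2 or double knockout 2 (limma adjusted p otherwise up to 0.146). Among integrin ligands, mostly of the matrix, 3 of 24 tested rose and 0 fell, with a median of 0.04. That is 12.5% called beside 4.86% of all tested genes. At an unadjusted p under 0.05 with limma it is 16.7% beside 18.7%. Ctgf, a matricellular protein, was at 2628, 3260 and 2685 in double knockouts and 1752, 1956 and 1699 in controls (0.66, limma adjusted p = 0.000286), and it passed in all 6 fits that left out a library. Vcam1, the ligand of alpha4beta1, was at 2082, 2122 and 2249 in double knockouts and 1669, 1701 and 1615 in controls (0.37 ± 0.08 SE, limma adjusted p = 0.0112). Fbln5, an elastic fibre protein, was at 56, 92 and 53 in double knockouts and 30, 35 and 39 in controls (0.89 ± 0.23 SE, limma adjusted p = 0.0293). Vcam1 missed the threshold in the fits that left out control 1, control 3 or double knockout 3 (limma adjusted p up to 0.0918), and Fbln5 missed it whichever library was left out (limma adjusted p up to 0.152).

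Receptors for laminin and matrix other than integrins held 1 riser and 1 faller among 11 (18.2% called, beside 4.86% of all tested genes), with a median of -0.12. Cd44, the hyaluronan receptor, was at 1890, 1974 and 1864 in double knockouts, well above the controls at 975, 1197 and 958 (0.88 ± 0.09 SE, limma adjusted p = 9.30e-06). Bcam, the Lutheran receptor for laminin alpha5, was at 3887, 4031 and 3619 in double knockouts, below the controls at 4932, 5227 and 5258 (-0.42 ± 0.08 SE, limma adjusted p = 0.00484). The Bcam call was lost without control 3 (limma adjusted p = 0.0525), and that of Cd44 held without each library in turn. Dag1, dystroglycan, the laminin receptor of the dystrophin complex, chosen after its values were seen, was at 10090, 6996 and 8892 in double knockouts and 9928, 10072 and 10169 in controls, and did not pass (-0.23 ± 0.11 SE, limma adjusted p = 0.254).

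Adaptors on the cytoplasmic side of integrins had 2 risers and 5 fallers among 48 (14.6% called, beside 4.86% of all tested genes), with a median of -0.04. Itgb1bp2, melusin, a muscle protein that binds the beta1 tail, fell: it was at 685, 736 and 689 in double knockouts and 1288, 1171 and 1335 in controls (-0.84 ± 0.09 SE, limma adjusted p = 7.17e-06). Itgb1 itself had the log2 fold change of 0.00 given above. Tgfb1i1, the paxillin relative Hic-5, fell to 880, 851 and 760 in double knockouts, against 1363, 1501 and 1514 in controls (-0.81 ± 0.09 SE, limma adjusted p = 1.32e-05). Nrap, which anchors actin at muscle attachment sites and binds talin, rose to 2925, 3039 and 2994 in double knockouts, against 1557, 1721 and 1294 in controls (0.98 ± 0.10 SE, limma adjusted p = 3.94e-06). These calls, and that of Actn1, held in all 6 fits that left out 1 library. Of the other called adaptors, chosen after their values were seen, Actn1 (alpha-actinin 1, -0.64), Tln2 (talin 2, -0.44) and Lims2 (PINCH2, -1.16) fell and Parvg (gamma-parvin, a leukocyte protein, 1.16) rose. Tln2 was at 3893, 3054 and 3405 in double knockouts and 4684, 4945 and 4405 in controls, and it missed the threshold when control 1 or double knockout 3 was dropped (limma adjusted p up to 0.0743). Lims2 and Parvg had at most 66 in any library, and their calls were lost without several single libraries (limma adjusted p up to 0.124 for Lims2 and 0.161 for Parvg). Of 16 matrix proteases and their inhibitors 0 passed with limma (2 higher and 2 lower at an unadjusted p under 0.05, which is 25% beside 18.7% of all tested genes). The highest means over all 6 libraries were those of the membrane-bound metalloproteases Mmp15 and Mmp14. Mmp15 was at 6122, 4145 and 5018 in double knockouts and 5264, 5689 and 5559 in controls, and Mmp14 at 2497, 2855 and 2163 in double knockouts and 2851, 2704 and 2613 in controls. Both had overlapping groups and a log2 fold change of -0.13. The secreted gelatinase Mmp2, chosen after its values were seen, was at 2180, 3615 and 2538 in double knockouts, all above the controls at 1969, 1992 and 1656, and did not pass (0.54 ± 0.18 SE, limma adjusted p = 0.155), except without double knockout 1 (0.70, limma adjusted p = 0.0192). Double knockout 2, its highest library, was also the one with the highest sum of fibroblast and cushion markers, whose part was not tested.

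**Figure D5:**
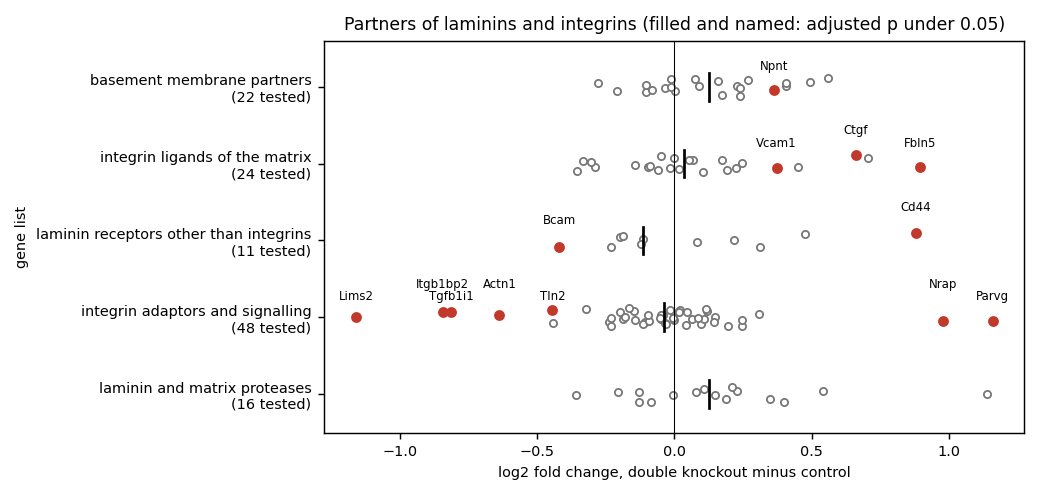
Fitted log2 fold change (double knockout minus control, x axis) of each tested gene in 5 lists of laminin and integrin partners, with a bar at each list's median and called genes filled and named. Adaptors, the largest list, hold 7 called genes of 48, from Lims2 at -1.16 to Parvg at 1.16. Their called share (14.6%) is below that of the receptors other than integrins (18.2%).

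Marker lists of heart cell types give the setting for these values. Of 12 endothelial and endocardial markers 1 rose (Emcn, called in only 1 of the 6 fits that left out a library) and 0 fell. That is 8.33% called, beside 4.86% of all tested genes, and 10 lay above 0 and 2 below. Their sums were 26634 to 31999 in double knockouts and 24536 to 29693 in controls. Of 10 mural and smooth muscle markers 2 fell (Cnn1, and Des, which passed in 3 of the 6 fits that left out a library) and 0 rose. That is 20% called, beside 4.86% of all tested genes. The sums were 22209 to 27237 in double knockouts, below the controls at 31600 to 32666. Des is also a gene of cardiomyocytes, so its fall and the lower sum are not particular to mural cells. Which cells the Cnn1 and Des reads came from was not tested. The mural markers did not move together: 6 lay below 0 and 4 above, from -1.78 to 0.81. At an unadjusted p under 0.05 with limma, 3 of them were lower and 1 higher (40%, beside 18.7% of all tested genes). Of 12 cardiomyocyte markers 1 fell (Myh6) and 0 rose (8.33% called, beside 4.86% of all tested genes). Of these 12, 9 lay below 0 and 3 above. Of 10 fibroblast and cushion markers 0 passed, and of 7 neural crest and glial markers 0 passed. At an unadjusted p under 0.05 with limma it was 0 and 1 (0 and 14.3%, beside 18.7% of all tested genes). In the last list 3 of the 7, Foxd3 among them, were at 0 in at least 1 library. The part of these cell types in the values of laminin and integrin genes was not tested.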

How the data were processed

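Stranded polyA libraries were made from heart RNA and read single-end, per the labels' protocols. Tools in the submitters' processing notes are STAR 2.4.2a, featureCounts 1.5.0, Trimmomatic, DESeq and DESeq2, with the build mm10 and no stated roles. The authors deposited whole numbers that were treated as a score, since they look like counts scaled to near-equal library totals and rounded. Strand setting, annotation and filters of the counting are not given. Samples were grouped by title. Genes with a mean of at least 1 in a genotype entered limma 3.58.1 (R 4.3.3) as log2(value + 1). Variances were moderated robustly around a trend, the script was tested on simulated data, and p-values were adjusted over all genes. Lengths, GC content and coordinates came from GENCODE M21 (GRCm38, the assembly of mm10), which held 99.3% of the identifiers. Precision at low values is limited by small counts.

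Members and lists were chosen with earlier results of these data known. Members past the threshold or with a mean of at least 1000 are given in every library; each partner list is represented by its 3 members with the lowest adjusted p among those called, or its 2 most abundant. Alternatives were other scalings, pseudocounts, filters, moderation, voom weights, removal of a GC and length trend (splines of 5 degrees of freedom, genes with a mean of at least 50), replicate block and libraries left out. Values of some genes are not reported here.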

Additional observations from a re-analysis of the deposited data

How the results depend on the processing

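The targeted gene Rbpms and the direction of Itgav held under every alternative run. Without a filter on low values, 963 genes were called higher across the table, with 2 laminin genes higher and 2 lower, 5 integrin genes higher, and 11 partner genes higher and 10 lower. Without robust moderation 144 genes were called higher and 206 lower, with 0 integrin genes and 4 partner genes higher. With the GC and length trend removed, 3 integrin genes were called higher. Without both libraries numbered 3, 14 genes were called higher and 24 lower, with 0 integrin genes, 1 partner gene higher and 0 lower, and Rbpms2 was at -0.79 (limma adjusted p = 0.142). Leaving out 1 library at a time gave 186 to 608 genes higher and 234 to 739 lower across the table, 0 to 2 laminin genes in either direction, 0 to 3 integrin genes higher, and 3 to 8 partner genes higher and 4 to 10 lower. The cause of these shifts was not tested, beyond the smaller number of libraries where some were left out.

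Replicate numbers were also fitted as a block. Libraries of the same number had correlated deviations of 0.05, 0.07 and 0.33, so the numbers are not taken to pair the libraries, and 1 of the 3 pairs, that numbered 3, was the best match of both its libraries. With the replicate block 674 genes were called higher and 681 lower, with 2 laminin genes higher (Lama2 among them) and 1 lower (Lamc3), and 2 integrin genes higher (Itga2b and Itgal). With the block and the GC and length trend removed, 2 laminin and 4 integrin genes were called higher. Itgav had a limma adjusted p of 0.0609 with the block and 0.0862 with both.

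Signs turned for some members and for Mmp15, none of them called with all libraries. With the GC and length trend removed, with or without the block, Itgb1 was at -0.0662, Itgb3bp at -0.0440 and Itgb8 at -0.0084. Without both libraries numbered 3, Itgb1 was at -0.0678 and Itgb3bp at -0.0045. With 1 library left out, values ran from -0.0201 to 0.0544 for Lamb1, -0.0275 to 0.0871 for Lamc1, -0.17 to 0.15 for Itga10, -0.18 to 0.32 for Itga7, -0.0323 to 0.50 for Itga8, -0.41 to 0.0518 for Itgae, -0.0790 to 0.71 for Itgam, -0.13 to 0.24 for Itgax, -0.0480 to 0.0893 for Itgb1, -0.10 to 0.20 for Itgb3bp and -0.27 to 0.0108 for Mmp15. Genes at a few reads, such as Itgb6, Itgam and Itgb2l, had intervals too wide to show differences at this depth.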
